A study of Mus musculus with 2 samples.

Results

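Stromal niche factors for blood stem cells are 9 genes through which marrow stroma holds, feeds or marks the niche of haematopoietic stem cells: Cxcl12, Kitl, Il7, Angpt1, Vcam1, Lepr, Gas6, Esm1 and Cxcl14. The genes were taken by name, with earlier results of these data known. They are 9 of the 32285 genes counted, of which 21698 had at least 1 UMI (unique molecular identifier, a tag that marks 1 captured RNA molecule) in the kept cells. Their levels were described in 1877 LEPR stromal cells among 9573 kept cells, and beside them in fibroblast, endothelial, megakaryocyte and erythroid cells.

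Blood stem cells sit close to marrow blood vessels. Perivascular stromal cells there that carry the leptin receptor make the chemokine CXCL12 and the KIT ligand, also called stem cell factor. CXCL12 keeps stem cells in the marrow through CXCR4, and the KIT ligand keeps them alive through KIT. The same stroma makes cytokines, adhesion molecules and ligands of receptor tyrosine kinases that act on lymphoid progenitors, vessels and stem cells.

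The cells came from male mice of the INK-ATTAC line, aged 24 months and without any treatment, and 3 of them were pooled into 1 sample before capture. INK-ATTAC mice carry a transgene in which a fragment of the p16 promoter drives a FLAG-tagged caspase 8 that a drug, AP, can activate, and these mice were not given the drug. Femurs and tibiae were separated into bone and marrow, digested and recombined, then depleted of lineage-positive blood cells on magnetic beads and sorted for live cells without CD45. No young or treated animals were part of the sample, so the levels describe aged mice only.

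The pool was read by the 10x 3′ assay into 2 count matrices that the labels call replicates 1 and 2. They are called lanes 1 and 2 here, a name that the labels do not use. Lane 1 held 116827845 UMIs over 10968 barcodes, and lane 2 held 120556381 UMIs over 11016 barcodes. The lanes shared 10928 of 11056 barcodes, so they hold the same cells. Squared differences between the lanes, summed over shared barcodes, came to 0.559 of the summed counts, which is below the 1-to-1 ratio of separate counting draws. The lanes were therefore summed per barcode and treated as 1 sample. With 1 sample there is no spread between animals and no test. Intervals below are 95% intervals (exact Poisson for levels, exact binomial for shares, exact conditional binomial for ratios) and cover counting error only, on the mean of the lanes. Levels are CPM, the UMIs of a gene over all UMIs of the summed cells of a class, where 1% of the UMIs is 1e4 CPM. The 3′ assay counts molecules without regard to transcript length, so CPM are not divided by length, and levels of different genes are not ranked.

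A cell was called LEPR stromal when it had at least 1 Lepr UMI and at least 5000 CPM of Cxcl12. The 1877 cells were 19.6% of the kept cells (18.8% to 20.4%), with a median of 2594 UMIs. Their identity was checked on 12 marrow stromal markers that exclude the 9 genes. All 12 were found in at least 10% of the cells, and together they reached 23430 CPM, led by Igfbp5 at 8823 CPM. Adipoq, a marrow stromal adipokine, stood at 1149 CPM. The same 12 markers summed to 4242 CPM in fibroblasts, with 10 of them found, and to 1515 CPM in endothelial cells, with 5 found. They summed to 371 CPM in megakaryocytes and 24.9 CPM in erythroid cells. Erythroid markers summed to 2555 CPM in the gated cells, with a median over cells of 1755 CPM. Of the gated cells, 1306 (69.6%) lay in the cluster whose markers named it LEPR+ stromal. In an unnamed cluster with the same 12 markers and a low depth (median 1437 UMIs) lay 429. Another 138 lay in an unnamed cluster of mixed markers, with 7 of 15 erythroid and 4 of 12 LEPR stromal markers found. No gated cell lay in a cluster named erythroid.

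The other classes were clusters of the remaining cells, named from marker lists. The fibroblast class held 40 cells like the Sca-1/PDGFRa+ fibroblast of bone, with all 13 of its markers found and Dcn at 19819 CPM. The endothelial class held 52 cells with 10 of 11 markers found. The pericyte and smooth muscle list summed to 3136 CPM there, 2089 of it Rgs5, but its median over cells was 0. Erythroid markers summed to 3824 CPM in the endothelial class, with a median over cells of 2247 CPM. The megakaryocyte class held 131 cells with 8 of 8 markers found and Pf4 at 25193 CPM. Myeloid markers summed to 3688 CPM in that class, with a median over cells of 144 CPM. The erythroid class held 6419 cells, with a median of 14399.5 UMIs against 2594 in LEPR stromal cells.

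The gate is a threshold on a continuous level, so cells near it were described. Just outside, 39 cells with a Lepr UMI had 4000 to 5000 CPM of Cxcl12, and just inside, 33 cells had 5000 to 6000 CPM. Kitl stood at 398 CPM just outside and 699 CPM just inside. Vcam1 stood at 326 and 742 CPM, and Cxcl14 at 409 and 816 CPM. The cells on either side of the threshold thus carried the same genes, at levels below those of the whole class. A further 124 cells passed the Cxcl12 threshold without a Lepr UMI, and these had Kitl at 1102 CPM and Gas6 at 1385 CPM. Only 1 Lepr UMI was seen in 142 of the gated cells (7.57%). Lane 1 alone gated 1760 cells and lane 2 alone 1769, with 1642 in common.

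All 7 genes that the gate did not use (Kitl, Il7, Angpt1, Vcam1, Gas6, Esm1 and Cxcl14) had their highest CPM in LEPR stromal cells among the 5 classes, as did 26.2% of 12707 genes with at least 50 UMIs. The 7 genes were chosen with earlier results of these data known, so this count is a description and not a test. Esm1 is also among the leading genes of the cluster named LEPR+ stromal. With the stromal cells taken instead as those with a UMI each of Adipoq and Ebf3, 6 of 7 did, all but Cxcl14. Second place differed by gene. It went to endothelial cells for Kitl, to megakaryocytes for Angpt1 and to fibroblasts for Vcam1, Gas6 and Cxcl14.

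**Figure D1:**
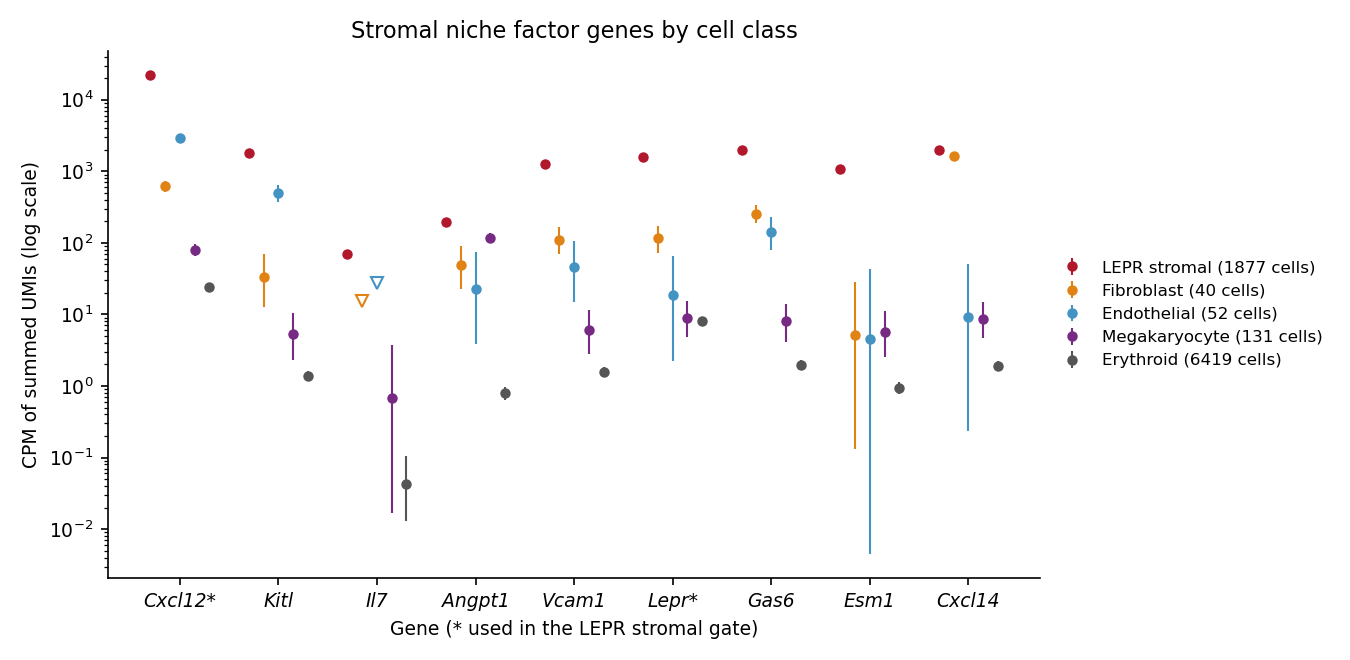
CPM of each niche factor gene (log axis) in the summed cells of 5 classes, with 95% exact Poisson intervals as bars. Open triangles mark the limit that a count of 0 allows (3 counts), and asterisks mark the genes that define the LEPR stromal gate. LEPR stromal cells hold the top point for each gene, with fibroblasts at 1631 CPM close to the 1982 CPM of stromal cells for Cxcl14 and megakaryocytes at 117 CPM near 194 CPM for Angpt1.

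The genes that define the gate are given as a description. Cxcl12, the chemokine that retains stem cells, stood at 22189 CPM in LEPR stromal cells (22063 to 22315). Endothelial cells followed at 2902 CPM (2590 to 3240) and fibroblasts at 620 CPM (514 to 741). Megakaryocytes had 79.6 CPM and erythroid cells 24.3 CPM, and none of these intervals overlapped. Lepr, the leptin receptor, stood at 1568 CPM in LEPR stromal cells and at 116 CPM in fibroblasts (73.0 to 174). The intervals of endothelial cells (18.4 CPM, 2.22 to 66.3), megakaryocytes (9.03 CPM, 4.87 to 15.3) and erythroid cells (8.09 CPM, 7.56 to 8.66) overlapped for Lepr. Because the gated cells were taken out of the other classes, those levels also depend on the gate.

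Of the haematopoietic cytokines, Kitl, the ligand of KIT, reached 1779 CPM in LEPR stromal cells (1744 to 1815), at 1788 CPM in lane 1 and 1771 CPM in lane 2. Endothelial cells had 500.4 CPM (376 to 652), and 29 of their 52 cells had a Kitl UMI. Fibroblasts had 33.4 CPM (12.9 to 70.7), megakaryocytes 5.35 CPM (2.31 to 10.5) and erythroid cells 1.38 CPM (1.16 to 1.62). The summed levels of the 5 classes did not overlap in counting error, but the lower ones rest on few cells, with a Kitl UMI in 4 of 40 fibroblasts and 4 of 131 megakaryocytes. At equal depth the shares of cells with a Kitl UMI overlapped in fibroblasts (2.56%, 0.0649% to 13.5%), megakaryocytes (1.03%, 0.0261% to 5.61%) and erythroid cells (0.338%, 0.206% to 0.521%). Kitl was 3.56-fold higher in LEPR stromal than in endothelial cells (2.73 to 4.73), and 53.2-fold higher than in fibroblasts (25.2 to 138).

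Il7, the cytokine that B cell progenitors need, had 378 mean UMIs per lane and 70.3 CPM in LEPR stromal cells (63.4 to 77.8). No Il7 UMI was seen in 40 fibroblasts, which allows up to 15.4 CPM, or in 52 endothelial cells, which allows up to 27.5 CPM. Counting 3 UMIs over each class as the limit, Il7 was at least 4.56-fold higher than in fibroblasts and at least 2.55-fold higher than in endothelial cells. The exact interval is wider, with lower ends of 3.69 and 2.07, so on it Il7 would not reach 4-fold against fibroblasts. Megakaryocytes had 1 mean UMI per lane (0.669 CPM, 0.0169 to 3.73), a ratio of 105 with an interval of 18.8 to 4166. In erythroid cells Il7 stood at 0.0431 CPM (0.0129 to 0.105), which overlapped the megakaryocyte interval. Among the 5 classes Il7 was thus detected above a few UMIs in LEPR stromal cells alone, while the depth of the fibroblast and endothelial classes could not show a level below their limits.

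Angpt1 and Gas6 encode ligands of receptor tyrosine kinases. Angpt1, the ligand of TIE2 (the product of Tek), stood at 194 CPM in LEPR stromal cells (182 to 206) and at 117 CPM in megakaryocytes (upper limit 135). An Angpt1 UMI was found in 53 of 131 megakaryocytes (40.5%) and in 875 of 1877 LEPR stromal cells (46.6%), at median depths of 4339.5 and 2594 UMIs. At equal depth the shares with Angpt1 were 21.6% (13.9% to 31.2%) and 31.1% (28.6% to 33.7%). The level in stromal cells was 1.66-fold that of megakaryocytes (1.41 to 1.96), the smallest ratio of Angpt1 to another class. Fibroblasts followed at 48.9 CPM (22.9 to 91.3) and endothelial cells at 23.0 CPM (3.82 to 73.5), and these intervals overlapped. Erythroid cells had 0.789 CPM. Angpt1 was therefore shared by stromal cells and megakaryocytes, and scarce in the erythroid cells.

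Gas6, the vitamin K-dependent ligand of TYRO3, AXL and MERTK, stood at 1956 CPM in LEPR stromal cells (1919 to 1994). Fibroblasts had 252 CPM (186 to 333) and endothelial cells 142 CPM (80.5 to 233), which overlapped. Megakaryocytes had 8.02 CPM and erythroid cells 1.99 CPM. The stromal level was 7.76-fold that of fibroblasts (5.87 to 10.5) and 13.7-fold that of endothelial cells (8.40 to 24.3).

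Vcam1 encodes an adhesion molecule bound by the integrin VLA-4 on blood cells. It stood at 1251 CPM in LEPR stromal cells (1221 to 1281), at 111 CPM in fibroblasts (68.9 to 168) and at 45.9 CPM in endothelial cells (14.9 to 107). The fibroblast and endothelial intervals overlapped. The stromal level was 11.3-fold that of fibroblasts (7.43 to 18.2) and 27.2-fold that of endothelial cells (11.7 to 83.9). Vcam1 UMIs were scarce in the blood classes, at 6.02 CPM in megakaryocytes and 1.55 CPM in erythroid cells.

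Esm1 encodes endocan, a secreted proteoglycan best known from endothelial tip cells. In these cells it stood at 1069 CPM in LEPR stromal cells (1041 to 1097), and 1658 of the 1877 cells had a UMI. Endothelial cells had 0.5 mean UMIs per lane in 52 cells (4.59 CPM, 0.00451 to 42.9), a ratio of 233 with an interval of 24.9 to 237022. Fibroblasts had 1 mean UMI per lane, a ratio of 208 with an interval of 37.3 to 8205. Esm1 was thus a stromal and not an endothelial transcript at this depth, although its name comes from endothelial cells. Megakaryocytes (5.68 CPM), fibroblasts (5.14 CPM) and endothelial cells overlapped for Esm1, and the interval of erythroid cells (0.938 CPM, 0.761 to 1.14) lay within those of fibroblasts and endothelial cells.

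Cxcl14, a chemokine of stroma and epithelia, stood at 1982 CPM in LEPR stromal cells (1945 to 2020) and at 1631 CPM in fibroblasts (1456 to 1821). The ratio of 1.22 (1.09 to 1.36) was the smallest of the genes against fibroblasts. A Cxcl14 UMI was found in 25 of 40 fibroblasts. Endothelial cells had 9.18 CPM (0.232 to 51.2), megakaryocytes 8.69 CPM (4.63 to 14.9), which overlapped, and erythroid cells had 1.91 CPM (1.66 to 2.20). Unlike Kitl and Esm1, Cxcl14 thus had a summed level in fibroblasts near that of LEPR stromal cells. Fewer fibroblasts carried it: at 2000 UMIs in lane 1, a Cxcl14 UMI was in 90.2% of stromal cells (88.4% to 91.8%) and in 53.8% of fibroblasts (37.2% to 69.9%). With the unnamed cells led by Chad and Prg4 counted as fibroblasts, Cxcl14 in fibroblasts fell to 774 CPM. With stromal cells taken by UMIs of Adipoq and Ebf3, Cxcl14 stood higher in fibroblasts (1628 CPM) than in those stromal cells (1501 CPM). All 9 genes were lower in those stromal cells than in the gated ones, with Cxcl12 at 16543 CPM and Kitl at 1340 CPM. Genes 4-fold lower than in erythroid cells numbered 89 with them, against 1124 with the gate. The part of erythroid RNA in this was not tested.

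A ratio of at least 4 was counted among genes with at least 50 UMIs in the pair of classes, with a count of 0 set to 3 counts. Against fibroblasts, 5 of the 7 genes outside the gate were at least 4-fold higher in LEPR stromal cells, as were 8.13% of 9602 genes tested. The call of Il7 rests on the 3-count limit, and its exact lower end of 3.69 is below 4-fold. The calls of Esm1, Kitl and Vcam1 rest on 1, 6.5 and 21.5 mean fibroblast UMIs per lane. These genes met the 50 UMI minimum through their stromal UMIs, so the count is a description and not a test. The genes below 4-fold were Cxcl14 and Angpt1, the latter at 3.97-fold (2.12 to 8.49), so close to the threshold that several other settings put it above. Against endothelial cells, 5 of 7 were at least 4-fold higher, beside 7.47% of 9569 genes, with Kitl and the bounded Il7 below. The calls of Esm1, Cxcl14, Angpt1 and Vcam1 rest on 0.5, 1, 2.5 and 5 mean endothelial UMIs per lane. These genes also met the UMI minimum through their stromal UMIs. The Angpt1 ratio of 8.45 has an interval of 2.63 to 50.9, which reaches below 4-fold. Against megakaryocytes, 6 of 7 were, beside 23.2% of 10216 genes, with Angpt1 below. Against erythroid cells, 7 of 7 were, beside 30.1% of 12413 genes. Both gate genes passed in each of the 4 comparisons, which the gate itself sets in part. TMM scaling between the class sums moved the median ratio of all genes against erythroid cells by -1.25 on the log2 scale and the genes at least 4-fold higher from 3731 to 2561. The ratios of the 7 genes, from 246-fold up, were too large for that shift to matter.

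Shares of cells with a UMI depend on depth, so the shares in erythroid cells, the deeper class, are given beside those of stromal cells. Kitl was seen in 94.5% of LEPR stromal cells and in 2.96% of erythroid cells, at median depths of 2594 and 14399.5 UMIs. Gas6 was seen in 94.6% and 4.18%, Vcam1 in 92.6% and 3.30%, and Cxcl14 in 91.4% and 4.61%. Esm1 was seen in 88.3% and 2.49%, Angpt1 in 46.6% and 1.81%, and Il7 in 22.4% and 0.125%. The stromal share stood above the erythroid share for each of these 7 genes although the erythroid cells were deeper. With lane 1 thinned to 2000 UMIs per cell, 1295 LEPR stromal and 5924 erythroid cells were left. At that depth Kitl was seen in 92.4% of stromal and 0.338% of erythroid cells. The share of Il7 was 13.7% in stromal cells, with no UMI in erythroid cells, and that of Angpt1 was 31.1% and 0.219%. For Lepr and Cxcl12 the thinned erythroid shares were 1.84% and 5.81%.

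The genes were also set against Cxcl12, a gene of the gate. Per 1000 Cxcl12 UMIs, erythroid cells had 56.7 Kitl, 64.0 Vcam1, 81.7 Gas6 and 78.7 Cxcl14 UMIs. LEPR stromal cells had 80.2, 56.4, 88.2 and 89.3 in the same order. Esm1 had 38.6 in erythroid and 48.2 in stromal cells, and Il7 1.77 and 3.17. Angpt1 and Lepr stood further apart, Angpt1 with 32.5 UMIs per 1000 of Cxcl12 in erythroid cells against 8.74 in stromal cells, and Lepr with 333 against 70.7. Megakaryocytes had 1466 Angpt1 UMIs per 1000 of Cxcl12. Endothelial cells had 172 Kitl UMIs per 1000. Fibroblasts had 2631 Cxcl14, 407 Gas6, 187 Lepr, 178 Vcam1, 78.8 Angpt1 and 53.9 Kitl UMIs. As the gate selects stromal cells for Cxcl12 and takes them out of the other classes, it sets these ratios in part. No profile of empty droplets was measured, and the part of free RNA in these UMIs was not tested.

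Variation among LEPR stromal cells was measured in the 1295 cells with at least 2000 UMIs in lane 1, as the Fano factor (variance over mean, which is 1 for pure counting noise) expected at 2000 UMIs per cell. Over 3394 genes with a mean of at least 0.1 UMIs the median Fano factor was 1.07. Cxcl14 had a Fano factor of 4.87, with a mean of 4.11 UMIs, and stood above 92.9% of the 70 genes of like mean, whose median was 1.96. Within sub-clusters of these cells, described below by number, the Fano factor of Cxcl14 was 7.26 in sub-cluster 2 and 2.77, 2.22 and 2.42 in sub-clusters 0, 1 and 3. Gas6 had 2.16, Kitl 1.87, Vcam1 1.75 and Esm1 1.64, with medians of 1.94, 1.85, 1.61 and 1.54 in genes of like mean. These 4 genes lay between the 53.1 and 62.9 percentiles of genes of like mean. Among gated cells of the cluster named LEPR+ stromal they lay higher, Vcam1 at 73.5, Esm1 at 68.1, Gas6 at 65.2 and Kitl at 55.3, and the members over the median excess variation of genes of like mean rose from 3 to 6 of 7. Angpt1 had 1.21 and Il7 1.08. As squared coefficient of variation beyond counting noise, 3 of 7 (Cxcl14 at 0.9402, Il7 at 0.544 and Angpt1 at 0.515) exceeded the median of all genes, 0.335. All 3 lay above the median at each setting tried. At 1000 UMIs per cell the count was 5 of 7, with other cells (1750) and other genes (1500) in the comparison as well. That count includes Il7, whose mean of 0.0642 UMIs there is below the 0.1 minimum of the genes compared.

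**Figure D2:**
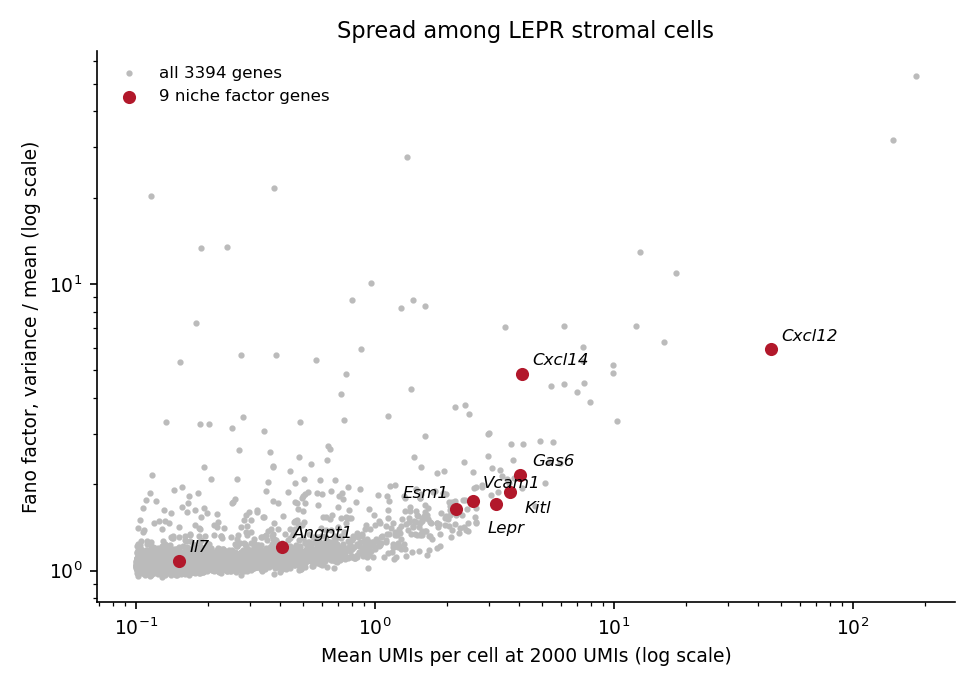
Fano factor against mean UMIs per cell (log axes) at 2000 UMIs per cell in 1295 LEPR stromal cells, for 3394 genes in grey and the 9 niche factor genes in red. Cxcl14, at 4.87, lies above most genes of its mean, and Kitl, at 1.87, lies among them.

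Single cells spread widely for each gene. Cxcl14 ran from 183 CPM at the 10th percentile through 1368 at the median to 3952 at the 90th. Kitl ran from 375 through 1532 to 3188 CPM, and Vcam1 from 220 through 1087 to 2396 CPM. Gas6 ran from 381 through 1696 to 3837 CPM, and Esm1 from 0 through 863 to 2077 CPM. Most cells had no UMI of Il7, and most had none of Angpt1, so both medians were 0. Thinned cells most often carried 5 of the 7 genes outside the gate (561 of 1295 cells, 43.3%), 46 cells carried all 7, and 2 carried none. No count expected from the share of each gene was computed beside these. Levels moved with depth for part of the genes. Kitl rose from 1362 CPM in the third of cells with the fewest UMIs to 1934 CPM in the third with the most, and Il7 from 43.7 to 82.99 CPM, while Vcam1 stood at 1183 and 1260 CPM. The part of depth in these differences was not tested.

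The LEPR stromal cells were clustered again without the 9 genes, which gave 6 sub-clusters, described by number and leading genes. Sub-cluster 0 held 594 cells led by Mmp13, Iigp1, Serpina3f, Angptl1 and Tnc. Sub-cluster 1 held 431 cells led by Lars2, Dnm3os, Col27a1, Gm42418 and Olfml2b, with fewer UMIs (median 2145.5). Its median of 4.81% mitochondrial UMIs stood above the 3.04% to 3.41% of sub-clusters 0, 2 and 3. Sub-cluster 2 held 389 cells led by Lgals1, Mrap, Serpina12, Map1lc3a and Nme2, with the highest sums of adipogenic markers (10697 CPM) and of interferon genes (772 CPM, against 695 in sub-cluster 0). Sub-cluster 3 held 316 cells led by Gm26802, Fos, Egr1 and Fosb, with 9707 CPM of immediate-early genes against 549 in sub-cluster 0. Sub-cluster 4 held 91 cells with a median of 1188.5 UMIs and 8.37% mitochondrial UMIs, led by F830016B08Rik, Kcnq1ot1, Dst, Tia1 and Ddx17. Sub-cluster 5 held 56 cells led by Hist1h2ak, Pkhd1l1, Hist1h2bm, Mki67 and Sox6, of which 37 were called doublets, and erythroid markers summed to 12418 CPM in it.

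Cxcl14 divided the sub-clusters most. It stood at 3391 CPM in sub-cluster 2 (3285 to 3500.3), at 2091 in sub-cluster 0, at 1466 in sub-cluster 3 and at 1180 in sub-cluster 1, intervals that did not overlap. It was lower still in sub-clusters 5 (835 CPM) and 4 (501 CPM). The highest level was 6.77-fold the lowest, 2.87-fold over the 4 largest sub-clusters, and 22.1-fold with clusters drawn at a resolution of 1.2, settings chosen after seeing the data. Among those 4, the other genes outside the gate differed by less, from 1.18-fold for Vcam1 through 1.22 for Il7, 1.33 for Kitl and 1.38 for Angpt1 and Gas6 to 1.53 for Esm1. The large sub-clusters thus all carried the niche genes, and Cxcl14 differed most among them. The intervals of the highest and lowest of the 4 also stood apart for Kitl, Angpt1, Vcam1, Gas6 and Esm1, and overlapped for Il7.

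**Figure D3:**
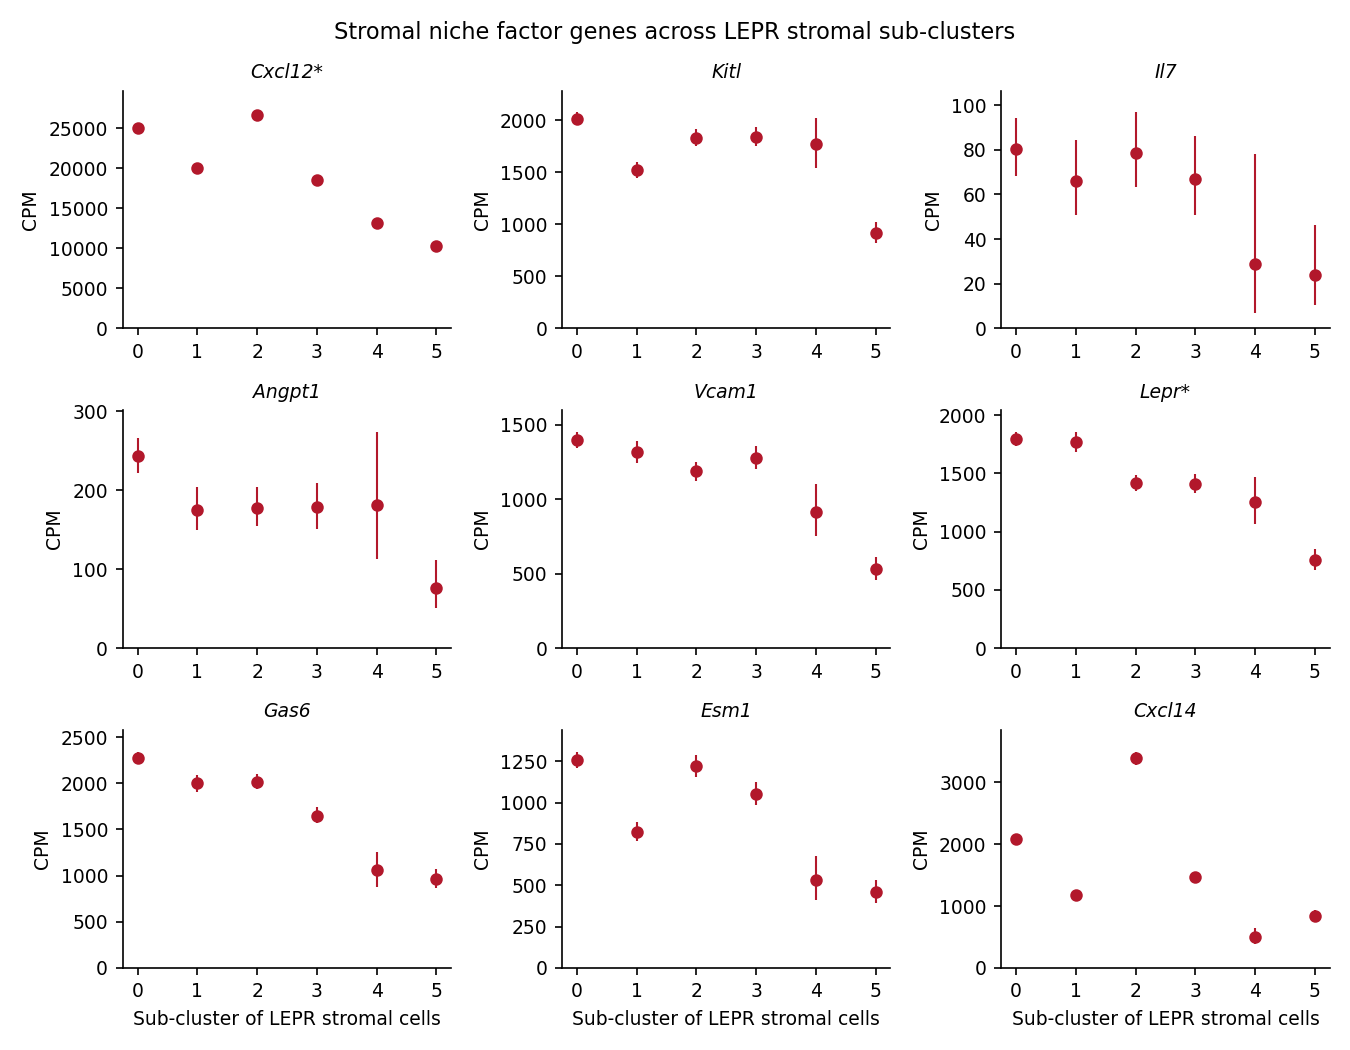
CPM of each niche factor gene in the 6 sub-clusters of LEPR stromal cells, with 95% exact Poisson intervals and axes from 0; asterisks mark genes of the gate. Cxcl14 peaks at 3391 CPM in sub-cluster 2, and all genes but Cxcl14 are lowest in sub-cluster 5.

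Kitl was 2012 CPM in sub-cluster 0 (1949 to 2076) and 1516 CPM in sub-cluster 1 (1440 to 1596). In the sub-cluster led by immediate-early genes, Kitl stood at 1842 CPM (1752 to 1935) and Vcam1 at 1276 CPM (1202 to 1354), near the levels of the class. Gas6 (1650.4 CPM, 1566 to 1738), Lepr (1411 CPM) and Cxcl12 (18555 CPM) stood below the class there, each at its lowest among the 4 large sub-clusters. For Lepr the interval (1333 to 1493) overlapped that of sub-cluster 2 (1414 CPM, 1346 to 1485). Angpt1 stood at 243 CPM in sub-cluster 0 (221 to 266) and between 175 and 181 CPM in sub-clusters 1 to 4, whose intervals overlapped. Esm1 stood at 1257 CPM in sub-cluster 0 and 1219 CPM in sub-cluster 2, which overlapped, at 1053 CPM in sub-cluster 3 and at 822 CPM in sub-cluster 1. In the cells with doublet calls and erythroid markers, sub-cluster 5, Kitl was 920 CPM and Gas6 962 CPM. The part of erythroid RNA in these levels was not tested.

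Receptors and ligands of the 9 genes were read from a list of 14 genes. Cxcr4, the receptor of CXCL12, stood at 36.4 CPM in megakaryocytes (27.4 to 47.5) and 15.9 CPM in erythroid cells (15.2 to 16.7), against 3.16 CPM in LEPR stromal cells. Endothelial cells had 18.4 CPM of Cxcr4 (2.22 to 66.3), which overlapped both. Ackr3, the scavenging receptor of the same chemokine, was a fibroblast transcript at 286 CPM (215 to 371), with 0.5 mean UMIs per lane in LEPR stromal cells. Ackr3 UMIs were thus found in fibroblasts beside Cxcl12 UMIs, and the part of free RNA in these was not tested. Kit, the receptor of the KIT ligand, stood at 31.0 CPM in LEPR stromal cells (26.5 to 36.1), 27.5 CPM in endothelial cells (5.68 to 80.5), 27.4 CPM in megakaryocytes (19.7 to 37.2) and 9.33 CPM in erythroid cells. Among stromal sub-clusters Kit was highest in sub-cluster 2, at 90.6 CPM, against 8.55 CPM in sub-cluster 0.

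Il7r, the receptor of IL-7, stood at 33.8 CPM in megakaryocytes (25.1 to 44.5), in 9.92% of their cells, with no UMI in LEPR stromal, fibroblast or endothelial cells. In that megakaryocyte class B cell markers summed to 426 CPM and T or NK cell markers to 159 CPM, although the cells had been depleted of B220 and sorted without CD45. The part of such cells in the Il7r level was not tested. Tek, the receptor of ANGPT1, stood at 197 CPM in endothelial cells (123 to 300.3) and 61.7 CPM in fibroblasts (31.9 to 108), and Tie1, its partner, at 239 CPM in endothelial cells. Angpt1 and its receptor were thus highest in separate classes. Itga4, a chain of VLA-4, stood at 198 CPM in erythroid cells and 19.7 CPM in LEPR stromal cells, the reverse of Vcam1. Itgb1, the other chain, was found in every class, from 183 CPM in erythroid to 659 CPM in LEPR stromal cells.

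Of the receptors of GAS6, Axl was highest in fibroblasts at 422 CPM (336 to 524) with 47.1 CPM in LEPR stromal cells, Mertk stood at 27.5 CPM in endothelial cells (5.68 to 80.5) and 26.4 CPM in LEPR stromal cells, and Tyro3 had 4 mean UMIs per lane there. In erythroid cells Axl and Mertk were at 0.0478 and 0.0239 CPM. Axl and Mertk were therefore higher in LEPR stromal cells than in erythroid cells. Lep, the ligand of the leptin receptor, had no UMI in any of the 5 classes. Itgal stood at 12.7 CPM in megakaryocytes, and Il2rg stood at 32.1 CPM in endothelial cells (7.76 to 87.3), which overlapped megakaryocytes at 10.4 CPM (5.86 to 17.0).

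Among 28 other niche ligands, 14 were highest in LEPR stromal cells with at least 10 CPM, 6 in fibroblasts, 4 in endothelial cells and 1 in megakaryocytes. Among all genes with at least 50 UMIs, 26.2% were highest in LEPR stromal cells. These ranks are by CPM alone, and the intervals of the stromal lead and another class overlapped for Flt3l, Pdgfa, Sfrp1 and Tnfsf11, as those of the fibroblast lead did for Il6, Ptn and Wnt5a and of the endothelial lead for Dll1. LEPR stromal cells led for Csf1 (564 CPM) and Il34 (189.5 CPM), the pair of ligands of the macrophage receptor CSF1R. They also led for Fgf7 (341 CPM), Bmp6 (257 CPM), Bmp4 (240.5 CPM), Vegfc (239 CPM) and Vegfa (209 CPM), and for Spp1 (osteopontin) at 1717 CPM. Tnfsf11, which encodes the osteoclast factor RANKL, stood at 38.1 CPM. The stromal class thus carried growth factors for macrophages, vessels and bone beside the niche genes. Fibroblasts led for Igf1 (581 CPM against 223 in LEPR stromal cells), Angptl1 (404 CPM) and Ccn3 (345 CPM). Endothelial cells led for the Notch ligand Dll4 (179 CPM), and megakaryocytes for Tgfb1 (502 CPM). Endothelial Jag1 (87.2 CPM, 40.9 to 163) overlapped LEPR stromal Jag1 (56.0 CPM, 49.9 to 62.7), and Il15 was as close (27.5 CPM, 5.68 to 80.5, and 26.6 CPM), so neither lead was separated. Epo had no UMI in the 5 classes and Thpo 2 mean UMIs per lane in LEPR stromal cells. Il6 had 1 mean UMI per lane in LEPR stromal cells.

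Likeness of pattern was taken as Pearson's r of log2(CPM + 10) over 18 clusters, among 4141 genes with at least 100 CPM in a cluster, as a description over clusters that share 1 library and differ in depth. The gene most like Cxcl12 was Kitl (r = 0.981), followed by Fbln5 and Arrdc4. Kitl was most like Arrdc4 (0.990) and Vcam1 most like Id4 (0.990), with Gas6 next at 0.985. Il7 was most like Rspo2 (0.989), Esm1 most like Kng1 (0.990), and Gas6 most like Igfbp5 (0.989). Lepr was most like Chrdl1 (0.973) and Cxcl14 most like Islr (0.992). Angpt1 had the least close neighbour, Ltbp1 at 0.953. Between members, the lowest r was that of Il7 and Cxcl14, 0.663, and that of Vcam1 and Gas6 was the highest, 0.985.

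The 9 genes lie on 7 chromosomes of the GRCm38 build, in the GENCODE annotation. Cxcl12 is on chromosome 6 (117168535 to 117181367, plus strand), Kitl on chromosome 10 (100015630 to 100100416, plus) and Lepr on chromosome 4 (101717404 to 101815352, plus). Il7 (7569994 to 7613760, minus) and Vcam1 (116109949 to 116129688, minus) are on chromosome 3, far apart. Esm1 (113209659 to 113218098, plus) and Cxcl14 (56288643 to 56296551, minus) are on chromosome 13. Angpt1 is on chromosome 15 (42424723 to 42676977, minus) and Gas6 on chromosome 8 (13465374 to 13494490, minus). The genes are thus not neighbours.

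RefSeq windows of 250 bases before the RefSeq start, in GRCm38.p6, were matched for 6 of the 9 genes, in 7 windows, Lepr having 2; Il7, Angpt1 and Vcam1 had no entry. Of 5 motifs given by their letters, 3 had no match in the 7 windows on either strand: the forkhead motif TGTTTAC (in 3.17% of 32851 windows of this length), the C/EBP motif TTGCNNAA (9.56%) and the E-box CACGTG (6.02%). A motif of EBF factors was searched as well and had no match, with a match in 0.779% of all windows. The GC-box GGGCGG, on both strands and with overlapping matches counted, was in the windows of Cxcl12 (5), Gas6 (4), Kitl (3) and 1 of Lepr (1), and in 32.7% of all windows. The TATA motif TATAAA, read on the gene strand, was in the window of Kitl alone, and in 7.59% of all windows. The RefSeq and GENCODE starts differ for some genes: most of the Kitl window, its TATA match included, and 1 whole Lepr window lie inside the GENCODE gene, the other Lepr window reaches into it, and the Gas6 window lies a short way upstream of it. A match is a description of letters and not of a bound site. Shown 5′ to 3′ are the windows of Cxcl12, which had the most matches, and of Esm1 and Cxcl14, with GC-box letters of either strand in capitals. They are Cxcl12 at chr6:117168285-117168534 (plus), Esm1 at chr13:113209409-113209658 (plus) and Cxcl14 at chr13:56296552-56296801 (minus), and each ends at the base before the annotated gene start.
Cxcl12: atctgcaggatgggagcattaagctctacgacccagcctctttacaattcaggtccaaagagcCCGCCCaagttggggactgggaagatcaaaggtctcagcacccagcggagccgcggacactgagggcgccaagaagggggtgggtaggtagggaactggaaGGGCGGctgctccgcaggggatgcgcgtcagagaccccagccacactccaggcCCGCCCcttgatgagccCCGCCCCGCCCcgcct
Esm1: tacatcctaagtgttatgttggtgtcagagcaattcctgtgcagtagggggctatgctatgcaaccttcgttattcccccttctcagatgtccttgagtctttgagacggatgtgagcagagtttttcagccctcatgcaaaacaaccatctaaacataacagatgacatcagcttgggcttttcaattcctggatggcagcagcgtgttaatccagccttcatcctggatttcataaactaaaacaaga
Cxcl14: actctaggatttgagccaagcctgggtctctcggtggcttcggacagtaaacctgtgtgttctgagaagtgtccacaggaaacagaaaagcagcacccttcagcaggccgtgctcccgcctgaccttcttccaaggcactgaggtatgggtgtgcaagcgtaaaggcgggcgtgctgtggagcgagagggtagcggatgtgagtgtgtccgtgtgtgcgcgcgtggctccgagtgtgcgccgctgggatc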

How the data were processed

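The deposited values are UMI counts that the authors made with Cell Ranger (mm10 genome, per the labels), 1 matrix per lane, not normalized. Barcodes with at least 200 genes and at most 20% mitochondrial UMIs over both lanes were kept: 9573 of 11056. Counts were normalized by SCTransform (Seurat 5.3.0) and clustered at resolution 0.8 on 30 principal components of 3000 variable genes. The 9 genes were left out of the variable genes but not of the normalization. Clusters were named from 13 marker lists. A mixed cluster was clustered again, and a cluster with more markers of a rival list found was left unnamed. Both of these steps were chosen after seeing the data. Clusters of low depth also stayed unnamed when no marker of their list was among their leading genes. Low depth meant median UMIs under the median of all kept cells, 4928.5, divided by 3. This depth rule left unnamed the clusters with 429 and 138 gated cells, and clusters of 370 and 250 cells with erythroid markers. Scrublet (scanpy 1.11.5, 8% expected) called 194 of 9514 cells (2.04%) doublets, which were kept. Intervals were computed with scipy 1.17.1, TMM factors with edgeR 4.0.16. Spread is the expectation under thinning. Expected shares of cells with a UMI were set beside drawn ones, as for Kitl, at 92.3% expected and 92.4% drawn. The genes named are the 9 members, 14 receptors or ligands of members, 28 other niche ligands, the 3 genes most like each member, the 5 leading genes of sub-clusters, and markers; 1 leading gene is not reported here. Members and lists were chosen with earlier results of these data known. Alternatives changed the gate, filters, lanes, doublets, scaling, ratio, UMI minimum, depth and clustering.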

Additional observations from a re-analysis of the deposited data

Results flagged for a closer look

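Barcodes left out by the filters also held niche factor UMIs. Of the 1483 barcodes left out, 19 (1.28%, 0.773% to 1.99%) met the LEPR stromal gate, which is why they are given here. They had a median of 27.3% mitochondrial UMIs, against a median of 3.56% in the kept LEPR stromal cells, a contrast that the 20% limit itself sets in large part, and a median of 2383.5 UMIs. In them Cxcl12 stood at 12928 CPM, Kitl at 922 CPM, Vcam1 at 834 CPM, Gas6 at 1334 CPM and Cxcl14 at 530 CPM. The cause was not tested.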

How the results depend on the processing

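Of 148 summary values recomputed, 136 kept and 12 moved: cell numbers and the sub-cluster ratio were held to their counting interval, and counts of genes to 1.5 times. Of 891 single CPM values, 147 left their counting interval, and 23 values at other depths or in other cells had no interval to be held to. The number of LEPR stromal cells, 1877, became 1987 with a Cxcl12 minimum of 2000 CPM, 1711 with 2 times the main minimum, 1735 with 2 Lepr UMIs, and 1784 with at most 10% mitochondrial UMIs. It was 1320 for all cells of the cluster named LEPR+ stromal, 1306 for gated cells within it, 1574 for cells with Adipoq and Ebf3 UMIs, and 1760 to 1769 in single lanes. Members over the median spread rose from 3 to 5 when thinned to 1000 UMIs, which also changed the cells and genes compared. Il7 was counted there with a mean below the minimum of the genes compared. The Cxcl14 ratio between sub-clusters, 6.77, was 22.1 at resolution 1.2 and 2.87 over the 4 largest, settings chosen after seeing the data. The causes were not tested.

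Members at least 4-fold higher numbered 4 to 6 against fibroblasts and 5 to 6 against endothelial cells (7 at a ratio of 2), and stayed at 6 against megakaryocytes and 7 against erythroid cells. Resolution 0.4 named no endothelial cluster and gives no value there. With the unnamed sub-cluster led by Chad and Prg4 added (107 fibroblasts), or endothelial cells taken by 3 markers (57 cells), both chosen after seeing the data, each count was 6.

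Over all genes, TMM scaling gave 2561 genes 4-fold higher and 2880 lower against erythroid cells, against 3731 and 1124. Stromal cells taken by Adipoq and Ebf3 UMIs gave 3259 higher and 89 lower there. A Cxcl12 minimum of 2000 CPM gave 3553 and 465. Mean-of-cell CPM moved the median log2 ratio by 0.29 against megakaryocytes and by -0.13 against erythroid cells, and TMM by -0.19 against megakaryocytes. Without a UMI minimum, 7491 genes were higher than in erythroid cells. The genes 4-fold lower then rose from 219 to 1198 against fibroblasts and from 264 to 1304 against endothelial cells. Against megakaryocytes they rose from 580 to 1393. With at least 200 UMIs, 351, 1216 and 2320 genes were higher than in fibroblasts (781 at the 50 UMI minimum), megakaryocytes (2368) and erythroid cells. At a ratio of 2, 2218, 2017 and 3969 genes were higher than in fibroblasts, endothelial cells (715 at a ratio of 4) and megakaryocytes. No paired analysis was possible because the lanes hold the same cells of 1 pooled sample. Depth limits the fibroblast and endothelial classes most, at 40 and 52 cells.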

Other observations

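A pair of small skeletal classes lay outside the 5 compared. In 26 cells with osteoblast markers, Cxcl14 stood at 549.6 CPM (450.4 to 664), Vcam1 at 128 CPM, Kitl at 92.5 CPM and Il7 at 2.57 CPM, while Spp1 reached 54026 CPM. Erythroid markers summed to 9770 CPM there, with a median over cells of 1448 CPM. In 67 cells led by Chad, Prg4, Fmod, Cilp and Fn1, which carried markers of both chondrocytes and fibroblasts and stayed unnamed, Cxcl14 stood at 362 CPM (306 to 426), Gas6 at 161 CPM and Cxcl12 at 198 CPM, with no Il7 UMI. In these cells erythroid markers summed to 7227 CPM (median over cells 1355 CPM), megakaryocyte markers to 1546 CPM and pericyte or smooth muscle markers to 1035 CPM. Cxcl14 was thus read in each mesenchymal class, below its level in LEPR stromal cells and fibroblasts.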
